A study of Mus musculus with 6 samples.

Results

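Expression of 10 genes of triglyceride synthesis, lipid droplets and lipoprotein export was examined in mouse liver cancer cells with stable knockdown of midnolin. The genes were chosen by name as the row of each deposited table whose identifier was Gpam, Lpin1, Lpin2, Dgat1, Dgat2, Plin2, Plin5, Pnpla2, Pnpla3 or Mttp, and they were 10 of the 25078 genes in the tables. RNA-seq with depletion of ribosomal RNA was run on 6 libraries of Hepa1-6, an established mouse line of hepatoma cells. One library came from parental cells that received no vector (wt), 2 came from cells transduced with a scramble shRNA lentivirus (scr 25-2 and scr 50-1), and 3 came from cells transduced with a lentivirus carrying an shRNA against midnolin (knockdown 25-3, 50-2 and 50-5). Transduced cells were selected with puromycin and then taken as single cells by limiting dilution, so that each knockdown line was 1 clone, whereas wt cells went through neither step. The labels did not explain the numbers 25 and 50, and did not say whether both scr libraries were of separate clones, or which knockdown library was which of the study's clones. p-values therefore measure the spread between these libraries, and an effect of midnolin on a gene cannot be told apart from a difference between clones.

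Hepatocytes build triglyceride by adding fatty acyl chains one after another to a glycerol backbone. Gpam attaches the first chain at the mitochondrial surface, the lipins (Lpin1 and Lpin2) remove the phosphate from phosphatidic acid to give diacylglycerol, and Dgat1 and Dgat2 add the last chain. The product is stored in droplets coated by perilipins such as Plin2 and Plin5, is released again by lipases such as Pnpla2 (adipose triglyceride lipase), and is loaded by Mttp onto apolipoprotein B to leave the cell as very low density lipoprotein (VLDL).

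The libraries held between 25586301 and 33119710 counts on genes, of which the ribosomal transcript Rn45s took between 10.1% and 13.1%. Midn, the targeted gene, had an RPKM (reads per kilobase of exon scaled to library size by the TMM method) of 60.5 in wt, 59.6 and 50.8 in the scr libraries, and 20.3, 21.8 and 22.1 in the knockdown libraries. Midn fell by 1.38 on the log2 scale in knockdown (SE, the standard error, 0.133, FDR 0.00777, quasi-likelihood F test of edgeR, Benjamini-Hochberg adjusted). Albumin (Alb), the defining secretory product of hepatocytes, had an RPKM of 2424 in wt, 1877 and 2804 in scr, and 336, 62.7 and 20.9 in knockdown, without passing the test (FDR 0.0712, same edgeR test). Krt18, a keratin of the same marker list, had an RPKM of 408 and 535 in scr and 821, 1160 and 632 in knockdown, also without passing (FDR 0.103, same edgeR test). In all, 12 of 15 listed hepatocyte or hepatoma markers were over an RPKM of 1 in some library. The summed RPKM of that marker list was 5950 in wt, between 3403 and 4661 in scr and between 936 and 1956 in knockdown. These sums moved with the groups although single markers lay in both directions, and their part in the results below was not tested.

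The promoters of Lpin1, Gpam and Plin2, the tested genes with a matched promoter whose knockdown and scr ranges did not overlap, are shown first, as the 250 bases before the transcript start in the direction of transcription (RefSeq, GRCm38.p6). RefSeq promoters were matched for 8 of the 10 genes, and those of Dgat1 and Dgat2 were not analysed here. Capitals mark the single match to a direct repeat of the hexamer AGGTCA with 1 base between the copies, the form bound by the PPAR nuclear receptors, with up to 2 mismatches on either strand. The Lpin1 window lies at chr12:16610967-16611216, the Gpam window at chr19:55127239-55127488 and the Plin2 window at chr4:86670060-86670309, all on the minus strand.
Lpin1: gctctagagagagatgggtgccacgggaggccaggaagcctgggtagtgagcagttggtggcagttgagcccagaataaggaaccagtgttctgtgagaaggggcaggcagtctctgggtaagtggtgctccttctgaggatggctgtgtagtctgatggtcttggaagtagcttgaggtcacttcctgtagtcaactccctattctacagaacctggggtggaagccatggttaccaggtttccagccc
Gpam: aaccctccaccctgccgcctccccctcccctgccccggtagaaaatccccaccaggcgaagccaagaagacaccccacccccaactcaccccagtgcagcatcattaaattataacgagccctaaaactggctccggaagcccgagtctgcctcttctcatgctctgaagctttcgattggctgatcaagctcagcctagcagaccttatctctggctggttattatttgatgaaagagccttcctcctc
Plin2: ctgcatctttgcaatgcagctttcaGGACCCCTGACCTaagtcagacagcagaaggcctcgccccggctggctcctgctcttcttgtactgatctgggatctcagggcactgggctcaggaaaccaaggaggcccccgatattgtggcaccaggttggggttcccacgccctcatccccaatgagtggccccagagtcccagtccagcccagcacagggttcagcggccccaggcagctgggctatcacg
The match in Plin2 spans the bases from -225 to -213 relative to the start and has 2 mismatches. Such a match was found in 3.24% of 32851 mouse promoters of the same length, and in none of the other windows of the 8 genes. The 8 genes had 12 such windows, since Gpam, Lpin2 and Plin5 have further starts. The GC box GGGCGG, searched on both strands, was not found in the 3 windows shown or in that of Mttp. It occurred 1 time in the second window of Gpam, 1 time each in the first and second windows of Lpin2, 1 and 2 times in the windows of Plin5, and 2 times each in those of Pnpla2 and Pnpla3. It was found at least 1 time in 32.7% of all promoters. A match describes the letters of the window only, and a window without one says nothing about the binding of a factor.

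Genes were tested where the RPKM was over 1 in at least 1 of the 5 compared libraries, and a gene was called at an FDR under 0.05 and a fold change of at least 1.5 in either direction. Of 11577 genes tested, 1230 (10.6%) were called, 625 (5.4%) higher and 605 (5.23%) lower in knockdown. Of the 10 genes, 8 were tested, and 1 of these 8 (12.5%) was called, Lpin1, which fell. At an unadjusted p under 0.05 there were 4 of the 8 genes (50%), against 31.5% of all genes tested. The RPKM ranges of knockdown and scr did not overlap for 5 of the 8 genes, against 50.2% of all genes tested. Knockdown lay above scr for 3 of them (Dgat1, Dgat2 and Plin2), against 25.7% of all genes, and below scr for 2 (Gpam and Lpin1), against 24.5%. The median log2 fold change of the 8 genes was -0.20, and that of all genes tested was -0.0097. The share called was close to that of all genes, and the account that follows is of single genes.

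**Figure D1:**
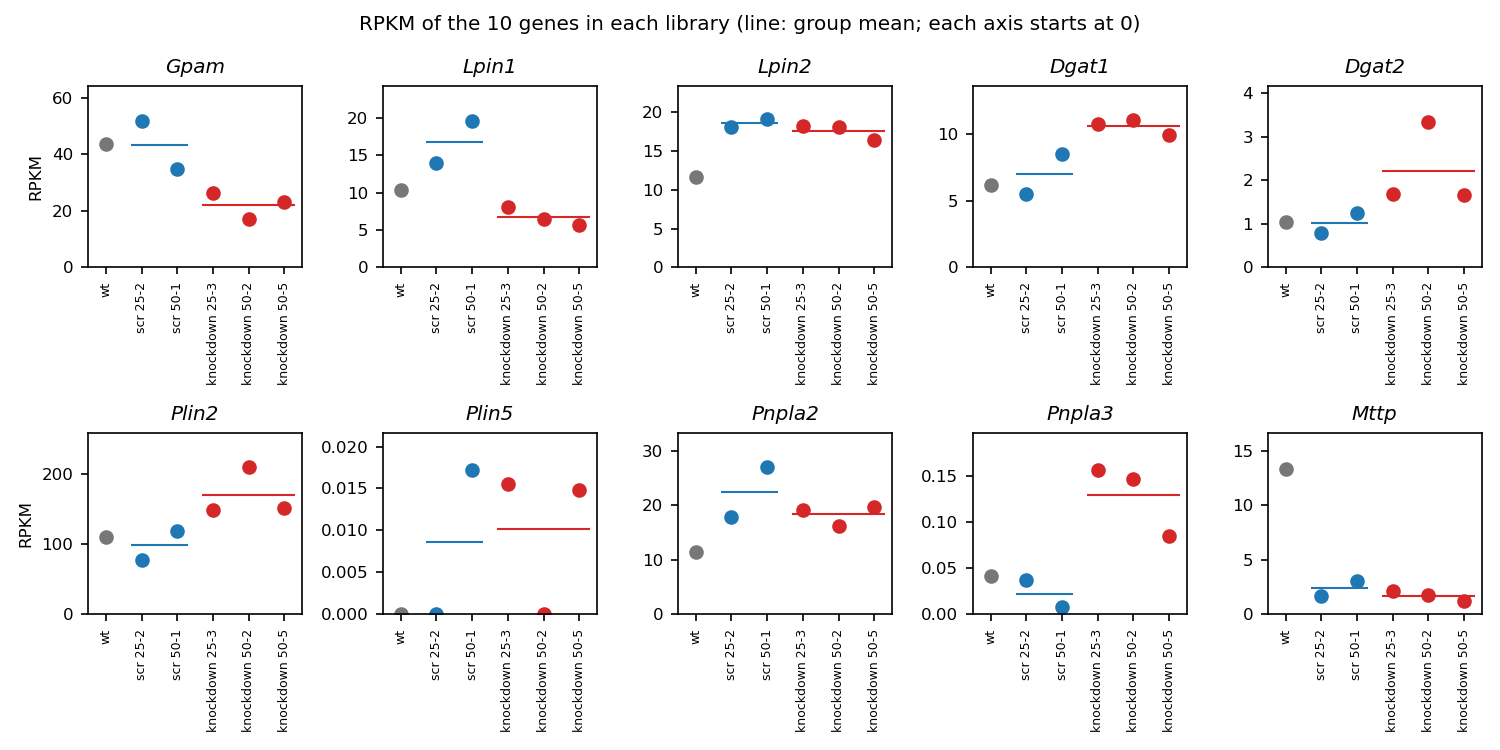
RPKM of each of the 10 genes (vertical axes, each from 0) in the wt library (grey), the scr libraries (blue) and the knockdown libraries (red), where each point is 1 library and lines are group means. All 3 knockdown points of Lpin1 and Gpam lie below both scr points, those of Dgat1, Dgat2 and Plin2 lie above them, and the wt point of Mttp stands above all other libraries.

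Of the earlier steps of synthesis, Gpam and Lpin1 were lower in every knockdown library than in either scr library. Gpam (chromosome 19 of mm10, 55067636 to 55127238, minus strand), the mitochondrial glycerol-3-phosphate acyltransferase, had an RPKM of 43.8 in wt, 51.8 and 34.8 in scr, and 26.3, 17.0 and 23.0 in knockdown. Every knockdown library lay below both scr libraries, and wt lay between the scr libraries. The knockdown mean was 22.1 ± 4.69 (SD, n = 3) against 43.3 ± 12.0 (SD, n = 2) in scr, or 51% of it. The log2 fold change of Gpam was -0.98 (SE 0.255), which missed the threshold at an FDR of 0.0635 by the quasi-likelihood F test of edgeR, Benjamini-Hochberg adjusted. The call depended on the control libraries, since Gpam passed at an FDR of 0.0269 when wt was added to the controls and at 0.0364 without scr 50-1, the scr library with the lower level (quasi-likelihood F test of edgeR, Benjamini-Hochberg adjusted). Its log2 fold change was -1.24 without scr 50-1 and -0.65 without scr 25-2. Over 14 alternatives its adjusted p ranged from 0.00388 with DESeq2 to 0.178, and Gpam passed in 3.

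Lpin1 (chromosome 12, 16535669 to 16610966, minus strand), a phosphatidic acid phosphatase that also acts as a transcriptional coactivator, fell in knockdown. Its RPKM was 10.4 in wt, 14.0 and 19.5 in scr, and 8.04, 6.44 and 5.64 in knockdown. The highest knockdown library lay below the lowest scr library, and wt lay between the groups. The knockdown mean of 6.71 ± 1.22 (SD, n = 3) was 40.0% of the scr mean of 16.8 ± 3.88 (SD, n = 2), a log2 fold change of -1.33 (SE 0.213, FDR 0.0206, quasi-likelihood F test of edgeR, Benjamini-Hochberg adjusted). The call of Lpin1 was lost when any 1 knockdown library was left out, with an FDR of 0.0581 without 25-3, 0.104 without 50-2 and 0.0741 without 50-5 (the same edgeR test), although the log2 fold change stayed between -1.54 and -1.08 when any 1 of the 5 libraries was left out. Between libraries with the same number in their label, the log2 ratio of Lpin1 was -0.80 for knockdown 25-3 over scr 25-2, and -1.69 for the mean of knockdown 50-2 and 50-5 over scr 50-1. In bulk RNA, fewer cells that express a gene and less mRNA in each cell cannot be told apart. The 2 genes most like Lpin1 over the 6 libraries were Sec14l1 (Pearson r 0.997) and Zfp217 (r 0.996) on log2(RPKM + 1), and 165 tested genes had an r over 0.95, with each point shared by all genes of 1 library.

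Lpin2 (chromosome 17, 71183532 to 71249818, plus strand), a lipin prominent in liver, overlapped between scr and knockdown. Its RPKM was 11.6 in wt, 18.2 and 19.1 in scr, and 18.3, 18.1 and 16.4 in knockdown. The transduced libraries overlapped, and wt lay below all of them. For Lpin2 the log2 fold change was -0.096 (SE 0.119, FDR 0.623, quasi-likelihood F test of edgeR, Benjamini-Hochberg adjusted). Lpin3, the remaining lipin, which belonged to the wider pathway list, rose from an RPKM of 2.31 and 3.32 in scr to 7.06, 6.93 and 5.04 in knockdown, with 4.38 in wt (log2 fold change 1.16, SE 0.257, FDR 0.046, same edgeR test). The call of Lpin3 was lost with wt added to the controls (FDR 0.0569), without scr 25-2 (0.0700), without any 1 knockdown library (0.076 to 0.166) and with the label number as a block (0.0787), by the same edgeR test. The summed RPKM of the lipins was 34.5 and 42.0 in scr, 33.4, 31.4 and 27.1 in knockdown and 26.4 in wt. Within that sum Lpin1 took 40.7% and 46.5% in scr and 24.1%, 20.5% and 20.8% in knockdown. Lpin3 took 6.71% and 7.91% in scr and between 18.6% and 22.1% in knockdown, so that the share of Lpin1 was lower and those of Lpin2 (at most 52.6% in scr, at least 54.8% in knockdown) and Lpin3 were higher in every knockdown library than in every scr library. In wt, Lpin1 took 39.3% and Lpin3 16.6%.

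Among the glycerol-3-phosphate acyltransferases, Gpam took 49.1% and 39.4% of the summed RPKM in scr and 38.7%, 27.0% and 35.5% in knockdown. Gpat4, the main enzyme of the endoplasmic reticulum in this sum, had an RPKM of 52.2 and 51.4 in scr and 38.6, 40.8 and 38.2 in knockdown (log2 fold change -0.41, FDR 0.0692, quasi-likelihood F test of edgeR, Benjamini-Hochberg adjusted). Gpat3 had an RPKM of 1.54 and 2.21 in scr and 3.00, 5.16 and 3.66 in knockdown (log2 fold change 1.06, FDR 0.0901, same edgeR test). Neither passed the threshold. The summed RPKM of the family was 105.5 and 88.4 in scr, and 67.9, 63.0 and 64.9 in knockdown, with 96.8 in wt.

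**Figure D2:**
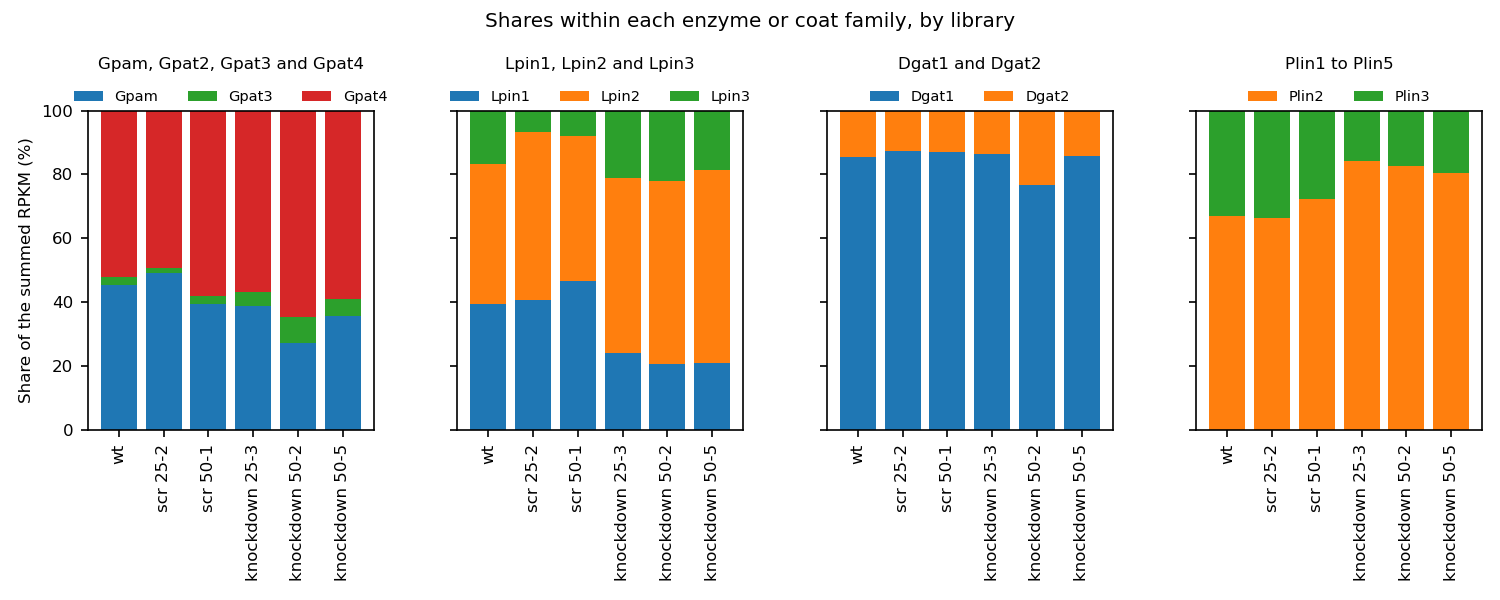
Share of the summed RPKM of each family (vertical axis, percent) taken by each gene in each of the 6 libraries, for glycerol-3-phosphate acyltransferases, lipins, diacylglycerol acyltransferases and perilipins. Genes under 0.5% in every library are not drawn. The Lpin1 segment shrinks from at least 40.7% in scr to at most 24.1% in knockdown, and the Plin2 segment grows from at most 72.3% in scr to at least 80.3%.

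The last step of synthesis was higher in every knockdown library, without passing the test. Dgat1 (chromosome 15, 76502012 to 76511994, minus strand), the diacylglycerol acyltransferase of the endoplasmic reticulum that esterifies mainly recycled and imported fatty acids, had an RPKM of 6.19 in wt, 5.48 and 8.46 in scr, and 10.8, 11.0 and 9.88 in knockdown. The scr libraries differed from each other by 1.54-fold, with the wt library between them, and all knockdown libraries lay above both. Dgat1 gave a log2 fold change of 0.59 (SE 0.231, FDR 0.152, quasi-likelihood F test of edgeR, Benjamini-Hochberg adjusted). Without scr 50-1, the higher scr library, Dgat1 passed at an FDR of 0.0459 by that test, the lowest of 14 alternatives, which ranged up to 0.339. The log2 fold change of Dgat1 was 0.93 without scr 50-1 and 0.32 without scr 25-2.

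Dgat2 (chromosome 7, 99153663 to 99182713, minus strand), an unrelated enzyme of the same reaction that uses mainly newly made fatty acids, was close to the filter with an RPKM of 1.04 in wt, 0.800 and 1.25 in scr, and 1.67, 3.34 and 1.65 in knockdown. The knockdown libraries lay above both scr libraries, and 50-2 lay well above the other two. These values rested on 61 counts in wt, 53 and 80 in scr, and 119, 243 and 123 in knockdown. On the log2 scale Dgat2 was higher by 1.10 (SE 0.450, FDR 0.162, quasi-likelihood F test of edgeR, Benjamini-Hochberg adjusted). It was 0.70 without knockdown 50-2 and 1.46 without scr 50-1. Dgat1 took 87.3% and 87.1% of the RPKM of both enzymes in scr, 86.5% and 85.7% in knockdown 25-3 and 50-5, and 76.7% in knockdown 50-2.

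Plin2 and Plin5 coat the droplet surface. Plin2 (chromosome 4, 86656565 to 86670059, minus strand), the broadly expressed perilipin that is stabilised by stored lipid, was the most abundant of the 10 genes, above 97.4% of all genes tested by its mean RPKM. Its RPKM was 109.8 in wt, 76.7 and 118.6 in scr, and 148.5, 209 and 150.8 in knockdown. All knockdown libraries lay above both scr libraries and above wt, and the scr libraries differed from each other by 1.55-fold. The mean was 169 ± 34.3 (SD, n = 3) in knockdown against 97.7 ± 29.6 (SD, n = 2) in scr, a log2 fold change of 0.78 (SE 0.253, FDR 0.101, quasi-likelihood F test of edgeR, Benjamini-Hochberg adjusted). DESeq2 called Plin2 at an adjusted p of 0.0212, and over 14 alternatives its adjusted p ranged up to 0.253, with this call the only one. The log2 fold change of Plin2 was 1.13 without scr 50-1 and 0.52 without scr 25-2. Plin2 took 66.2% and 72.3% of the summed perilipin RPKM in scr and 84.1%, 82.7% and 80.3% in knockdown. Plin3, the other perilipin with more than a trace of RNA, had an RPKM of 39.1 and 45.4 in scr and 28.1, 43.6 and 36.9 in knockdown (log2 fold change -0.24, FDR 0.478, same edgeR test).

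Plin5 (chromosome 17, 56111601 to 56117548, minus strand), the perilipin of oxidative tissues that tethers droplets to mitochondria, was not measurable. It had 1 count in scr 50-1, 1 in knockdown 25-3 and 1 in knockdown 50-5, and 0 in wt, scr 25-2 and knockdown 50-2. All were under the 3 counts that a count of 0 allows, which is an RPKM of up to 0.0564 in wt, and no fold change is given. Intervals and limits of this kind cover counting error only.

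Pnpla2 and Pnpla3 are lipases of one family. Pnpla2 (chromosome 7, 141455188 to 141460743, plus strand), which carries out the first step of triglyceride hydrolysis, had an RPKM of 11.3 in wt, 17.7 and 27.0 in scr, and 19.1, 16.2 and 19.7 in knockdown. The knockdown libraries overlapped the scr range, and wt lay below all other libraries. The log2 fold change of Pnpla2 was -0.30 (SE 0.212, FDR 0.386, quasi-likelihood F test of edgeR, Benjamini-Hochberg adjusted), and its direction turned to 0.036 without scr 50-1 and stood at -0.55 without scr 25-2. Its cofactor Abhd5 had an RPKM of 9.66 and 8.99 in scr and 9.25, 10.5 and 10.2 in knockdown.

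Pnpla3 (chromosome 15, 84167816 to 84189521, plus strand), a droplet protein that restrains Pnpla2 by taking up Abhd5, was below the filter in every library. It had 5 counts in wt, 5 and 1 in scr, and 23, 22 and 13 in knockdown, which is an RPKM of at most 0.157. Every knockdown library had more counts than every other library. The knockdown libraries together held 58 counts against 6 in scr, and after scaling for library size and number this was a ratio of 5.72 (95% exact counting interval 2.48 to 16.2, which leaves out the spread between libraries). Tested among all genes with a count, without the filter, Pnpla3 had a fitted log2 difference of 2.48 (SE 0.749) and did not pass, at an FDR of 0.0975 by the quasi-likelihood F test of edgeR, Benjamini-Hochberg adjusted. Pnpla2 made up at least 99.1% of the summed RPKM of both lipases in every library.

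Mttp (chromosome 3, 138089855 to 138143418, minus strand), the microsomal protein that transfers lipid to nascent apolipoprotein B, was higher in the 1 wt library than in every transduced library. Its RPKM was 13.3 in wt, 1.68 and 3.04 in scr, and 2.16, 1.72 and 1.16 in knockdown. The wt library stood 4.38-fold above the higher scr library, while the scr and knockdown ranges overlapped. In counts, this was 1652 in wt, 236 and 412 in scr, and 324, 265 and 183 in knockdown. The log2 fold change of Mttp between knockdown and scr was -0.50 (SE 0.370, FDR 0.400, quasi-likelihood F test of edgeR, Benjamini-Hochberg adjusted), and it was -0.018 without scr 50-1 and -0.85 without scr 25-2. Its partner Apob, a gene of the wider pathway list, had an RPKM of 6.82 in wt, 3.00 and 1.07 in scr, and 52.2, 37.8 and 4.37 in knockdown. All knockdown libraries of Apob lay above both scr libraries, but 50-5 lay far below the other two, and the log2 fold change of 3.93 (SE 1.16) did not pass, at an FDR of 0.0822 by the same edgeR test.

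**Figure D3:**
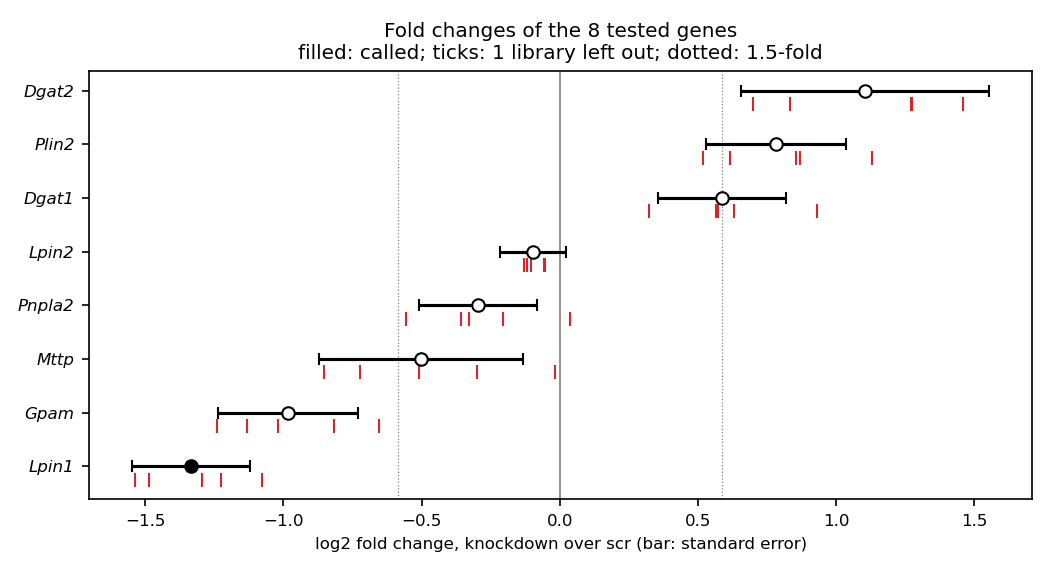
Log2 fold change of knockdown over scr (horizontal axis) for the 8 tested genes with standard errors as bars, where the filled point was called, red ticks are the estimates with 1 library left out, and dotted lines mark a fold change of 1.5. Lpin1, at -1.33, is the only filled point. The ticks of every gene but Pnpla2 stay on 1 side of 0, with those of Lpin2 and Mttp reaching -0.053 and -0.018. Those of Pnpla2 reach 0.036.

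The comparison of wt with scr rested on 1 wt library and was made without a test. Of the 8 genes, 4 had a wt level within the range of the scr libraries (Gpam, Dgat1, Dgat2 and Plin2). The share of all genes within that range was not computed, so this count has no background beside it. Mttp alone was at least 1.5-fold above both scr libraries, against 4.68% of 11211 genes, and Lpin2 and Pnpla2 were at least 1.5-fold below both, against 3.14%. Lpin1 lay 1.35-fold below the lower scr library, at 61.9% of the scr mean. Transduction, puromycin and the passage through single cells cannot be told apart in these differences. Among the transduced cells, the scr libraries were as far apart as 1.80-fold for Mttp, and between 1.52-fold and 1.56-fold for Dgat1, Dgat2, Plin2 and Pnpla2, each higher in scr 50-1. Gpam was lower in scr 50-1, at 0.673 times its level in scr 25-2, and Lpin2 was almost equal, at 1.05-fold.

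By level per kilobase, the order of the genes in scr was Plin2, Gpam, Pnpla2, Lpin2, Lpin1, Dgat1, Mttp and Dgat2, with Pnpla3 and Plin5 last. The scr ranges of Pnpla2, Lpin2 and Lpin1 overlapped, so the order among these was not larger than the spread between libraries. In knockdown, Dgat1 lay above Lpin1 in every library (9.88 to 11.0 against 5.64 to 8.04), whereas in scr and in wt Lpin1 lay above Dgat1. The knockdown ranges of Gpam, Pnpla2 and Lpin2 overlapped, as did those of Dgat2 and Mttp.

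Neighbouring genes on the chromosome were also examined, since clones can differ in copies of a chromosome segment. Within 5 Mb of Lpin1, the median log2 fold change of 22 other tested genes was -0.46, which left a difference of -0.87 for Lpin1. Around Plin2 the median of 21 genes was 0.33, and the difference was 0.46. The medians around Gpam (32 genes, -0.12), Lpin2 (24 genes, 0.11), Dgat1 (135 genes, -0.0074), Dgat2 (66 genes, 0.087), Pnpla2 (79 genes, -0.15) and Mttp (32 genes, 0.061) were nearer to 0. The copy number of these segments was not tested.

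A wider list of 124 pathway genes gave the surroundings of the 10. Of these, 123 were in the tables, 85 were tested, and 10 (11.8%) were called, 6 higher and 4 lower, close to the 10.6% of all genes. Their median log2 fold change was -0.054, against -0.0097 for all genes tested. Ranges did not overlap for 44 of the 85 (51.8%), close to the 50.2% of all genes tested. Among other enzymes of glycerolipid synthesis, 15 of 23 listed genes were tested, and 2 rose. These were Lpin3, described above, and Lclat1, which remodels acyl chains of lysophospholipids (RPKM 3.20 and 2.65 in scr against 6.37, 8.69 and 6.68 in knockdown). For Lclat1 the log2 fold change was 1.29 (SE 0.210, FDR 0.0217, quasi-likelihood F test of edgeR, Benjamini-Hochberg adjusted).

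Of 22 listed genes of the droplet coat and its growth, 14 were tested, 2 rose and none fell at the threshold, against 5.4% of all genes higher and 5.23% lower, and their median log2 fold change was 0.67. DESeq2 called 7 of these 14, 6 of the 15 synthesis enzymes, 5 of 24 genes of VLDL assembly and export, 4 of 24 regulators and 20.1% of all genes. At an unadjusted p under 0.05 there were 8 of these 14, against 9 of 15 among the synthesis enzymes, 6 of 24 in VLDL assembly and export, 8 of 24 among the regulators and 31.5% of all genes. Fitm2, a protein of the endoplasmic reticulum needed for droplets to bud, had an RPKM of 10.6 in wt, 10.7 and 8.89 in scr, and 32.1, 31.2 and 20.2 in knockdown. Fitm2 rose by 1.49 on the log2 scale (SE 0.252, FDR 0.024, quasi-likelihood F test of edgeR, Benjamini-Hochberg adjusted), and every knockdown library lay above all others. Hilpda, a hypoxia-inducible inhibitor of Pnpla2, had an RPKM of 22.2 and 25.1 in scr and 49.6, 73.2 and 44.4 in knockdown, but also 58.9 in wt (log2 fold change 1.22, SE 0.246, FDR 0.0367, same edgeR test). With wt added to the controls Hilpda lost its call, at a log2 fold change of 0.66 (FDR 0.284, same edgeR test). G0s2, another inhibitor of Pnpla2, had an RPKM of 0.081 and 1.62 in scr against 5.37, 8.96 and 14.3 in knockdown and did not pass (FDR 0.0943, same edgeR test). Cidec, which fuses droplets, had an RPKM of 0.097 and 0.080 in scr against 1.01, 1.62 and 0.310 in knockdown and did not pass (FDR 0.0582, same edgeR test). Among 7 adipocyte markers, only Cidec and Fabp4 exceeded an RPKM of 1, and Fabp4 rose from 1.10 and 0.103 in scr to between 27.7 and 32.3 in knockdown. Adipoq, Lep, Retn, Cfd and Plin1 were at or near 0.

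Of 20 lipolysis genes in the tables, 8 were tested and none was called by edgeR, with a median log2 fold change of -0.24 and 3 at an unadjusted p under 0.05. Among all genes tested, 10.6% were called and 31.5% had an unadjusted p under 0.05. DESeq2 and limma on log2(RPKM + 1) each called 1 of them, Ces2e. Among the 8 was Lipe, hormone-sensitive lipase, with an RPKM of 1.97 and 2.01 in scr and 0.977, 1.59 and 1.15 in knockdown (log2 fold change -0.69, FDR 0.169, quasi-likelihood F test of edgeR, Benjamini-Hochberg adjusted). Of 29 genes of VLDL assembly and export, 24 were tested, 1 rose and 1 fell, with a median log2 fold change of -0.14. Tmem41b, a scramblase of the endoplasmic reticulum needed for lipoprotein secretion, rose from an RPKM of 7.26 and 4.38 in scr to 15.2, 18.4 and 11.8 in knockdown (FDR 0.044, same edgeR test). Lman1, a cargo receptor for export from the endoplasmic reticulum, fell from 103 and 122 in scr to 65.5, 72.7 and 57.8 in knockdown (FDR 0.0316, same edgeR test).

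Of 29 transcriptional regulators of the pathway, 24 were tested, 1 rose and 3 fell, against 5.4% of all genes higher and 5.23% lower, and their median log2 fold change was -0.13 against -0.0097 for all genes. Ppargc1a, the coactivator that drives fatty acid oxidation and the partner of Lpin1 in that role, had an RPKM of 0.0698 in wt, 0.304 and 0.032 in scr, and 4.14, 4.07 and 5.97 in knockdown. Ppargc1a rose by 4.79 on the log2 scale (SE 0.865, FDR 0.0284, quasi-likelihood F test of edgeR, Benjamini-Hochberg adjusted), from 59 and 6 counts in scr to between 862 and 1301 in knockdown. The log2 fold change of Ppargc1a was 7.18 without scr 25-2, 3.94 without scr 50-1 and 2.29 by limma on log2(RPKM + 1). Xbp1, a factor of the unfolded protein response that also promotes hepatic lipogenesis, fell from an RPKM of 99.1 and 137.8 in scr to 27.1, 35.9 and 33.6 in knockdown, with 97.7 in wt (log2 fold change -1.89, SE 0.199, FDR 0.00874, same edgeR test). Hif1a, the oxygen-sensing factor, fell from 78.5 and 93.4 to 40.8, 36.4 and 36.2 (log2 fold change -1.20, FDR 0.0101, same edgeR test). Pparg, the receptor that promotes fat storage, fell from 9.48 and 12.2 to 6.06, 6.40 and 6.14 (log2 fold change -0.81, FDR 0.0429, same edgeR test). Without knockdown 50-2 none of these 10 calls of the wider list stood, without 25-3 those of Hif1a and Xbp1 did, and without 50-5 those of Fitm2, Hif1a and Xbp1 did. Without scr 50-1 the calls of Fitm2, Hilpda, Lman1, Pparg and Tmem41b were lost, and without scr 25-2 those of Hilpda and Lpin3 were lost. With the label number as a block the calls of Hilpda, Lman1, Lpin3, Pparg and Tmem41b were lost, and with no RPKM filter that of Pparg was lost.

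**Figure D4:**
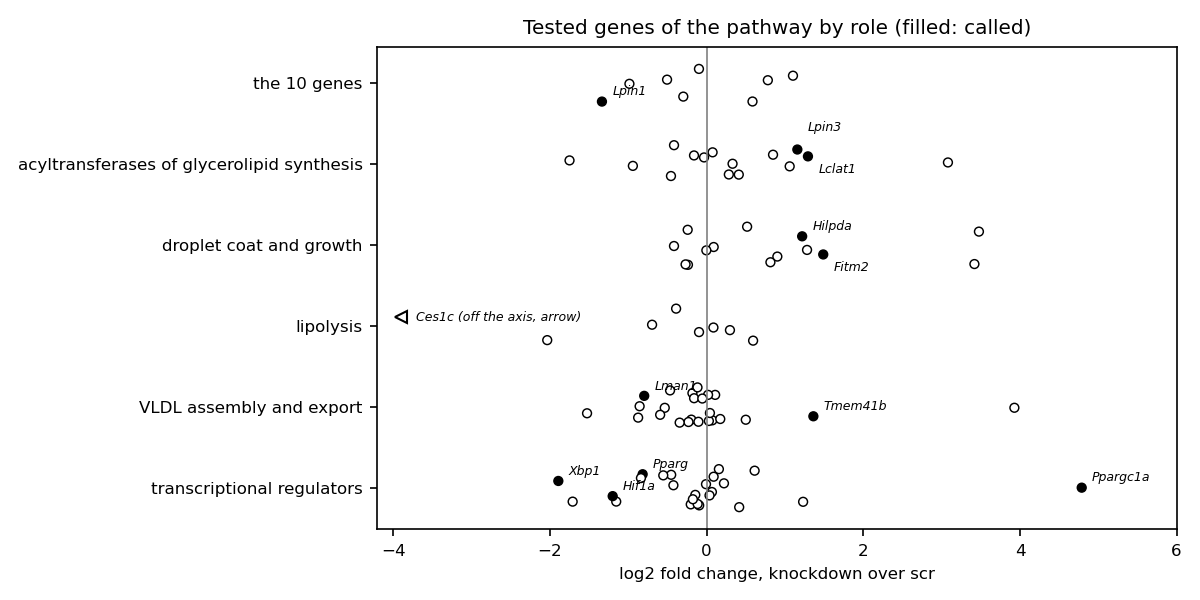
Log2 fold change of knockdown over scr (horizontal axis) for the tested genes among the 10 and among the wider list by role, where each point is 1 gene, filled points were called and vertical scatter within a row only separates points. Of the 14 droplet genes and of the 15 synthesis enzymes 9 each lie to the right of 0, as do 5679 of all 11577 genes tested, and Ppargc1a is farthest right at 4.79. Ces1c, at -9.72, is drawn as an arrow, since its estimate rests on scr 50-1 alone with an RPKM of 3.68 there against 0 in the other 4 compared libraries.

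Markers of other cells that could hold these genes were also summed. The 6 listed macrophage markers summed to an RPKM of between 4.37 and 4.74 in scr and between 9.12 and 14.1 in knockdown, with Ptprc, Adgre1 and Clec4f near 0. Cd68 (3.02 and 4.53 in scr, 6.22, 6.88 and 9.21 in knockdown) made up most of each sum. Csf1r followed in knockdown (1.12 and 0.0725 in scr, 2.26, 2.33 and 4.27 in knockdown). Neither passed (FDR 0.0989 and 0.192, quasi-likelihood F test of edgeR, Benjamini-Hochberg adjusted). The 7 stellate or fibroblast markers, carried almost entirely by Dcn, summed to between 563 and 594 in scr and between 409 and 573 in knockdown. The 5 endothelial markers summed to at most 0.371 in the transduced libraries and to 2.89 in wt. The 5 enterocyte markers, of which Vil1 made up nearly all, summed to between 21.6 and 43.4 in scr and between 51.7 and 67.4 in knockdown. The part of these sums in the values of the 10 genes was not tested.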

How the data were processed

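RNA-seq of Hepa1-6 cells gave 6 libraries. The authors aligned reads to mm10 with Tophat2, and the counts that they deposited are reads per RefSeq gene from HTSeq 0.6.1p1 (submitters' processing notes), without normalization and with no strand setting given in the sources used here. The deposited RPKM values were computed by the authors with edgeR, using TMM-scaled library sizes. All library columns were matched to samples by name, and 0 were left unmatched.

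Knockdown (3 libraries) and scr (2 libraries) were compared in R 4.3.3 on the deposited counts, with the quasi-likelihood F test of edgeR 4.0.16 after TMM scaling, and p-values were adjusted by Benjamini-Hochberg over all genes tested (FDR). Thresholds followed the study's methods. The study compared 2 of its clones with scr, but the labels do not name the clones, so all libraries labelled with midnolin shRNA entered. For all 1325 genes matched by name, the study's list of changed genes has the RPKM of knockdown 50-2 in its column for clone sh1, that of 25-3 in its column for sh2, and those of both scr libraries, and leaving out knockdown 50-5 leaves those libraries. That fit called 346 genes, none of the 10 among them. The study's list was longer, with the 1325 genes matched by name above. The fit therefore does not reproduce that list, and whether any of the 10 is on it is not reported here.

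The 10 genes were named in full. Of the wider list, called genes were named, and for called genes among the 10 the 2 most similar genes were named. Gpat3, Gpat4, Plin3, Abhd5, Apob, G0s2, Cidec, Lipe, Ces1c, Ces2e, Fabp4, Alb, Krt18, Cd68 and Csf1r were named after their values were seen. The 10 genes and the lists were chosen with earlier results of these data known. Genes that overlap the 10 on either strand had at most 1 count in any library.

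Alternatives were DESeq2 1.42.0, other size factors and filters, limma 3.58.1 on log2(RPKM + 0.1) or log2(RPKM + 1), wt added to the controls, the label number as a block, each library left out, shares of counts and a 10 Mb window. The edgeR script was tested on simulated counts. Promoters came from RefSeq (GRCm38.p6). Figures were drawn with matplotlib 3.10.9 and tables handled with pandas 2.3.3 in Python 3.11.15.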

Additional observations from a re-analysis of the deposited data

How the results depend on the processing

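Of 112 recalculated fold changes of the 8 tested genes under 14 alternatives, 102 kept their direction and their side of the threshold, 3 lost the call, 5 gained it and 2 reversed. Lpin2 reversed to 0.10 with wt added to the controls, and the log2 fold change of Pnpla2 lay between -0.55 (without scr 25-2) and 0.036 (without scr 50-1, the reversed value) when 1 library was left out. The number of genes called was 2322 with DESeq2 and 807 with the label number (25 or 50) as a replicate block, and between 131 (without knockdown 50-2) and 2273 (without scr 25-2) when 1 library was left out. All genes called were 1648 of 11647 with wt added to the controls, 1283 of 11389 without scr 50-1 and 346 of 11482 without knockdown 50-5. Of the 10 genes, 3 were called with DESeq2 (Gpam, Lpin1 and Plin2), 2 with wt added to the controls (Gpam and Lpin1), and between 0 (without any 1 knockdown library) and 3 (without scr 50-1) when 1 library was left out. Of the wider list, 23 were called with DESeq2 and 6 with the block, and between 0 (without knockdown 50-2) and 25 (without scr 25-2) when 1 library was left out. Where only 1 scr library was left, it was assumed to vary like the knockdown libraries. Deviations of scr 25-2 correlated with those of knockdown 25-3 at an r of 0.0025 across 11577 genes, which are not independent replicates. The r was 0.073 with knockdown 50-2 and -0.062 with knockdown 50-5. With 2 scr libraries the deviation of 1 mirrors that of the other, so these values cannot decide whether the label number paired libraries for single genes. With the block, Lpin1 kept its call at an FDR of 0.0462 by the edgeR quasi-likelihood test. On counts in place of RPKM, 10 of 16 family shares moved by more than the spread between libraries, since the genes differ in length, and within 10 Mb 2 of 8 neighbour medians moved. Depth limited Plin5, with at most 1 count in a library, and Pnpla3, with at most 23.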
